A study of Mus musculus with 9 samples.

Results

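Genes of GABA and glycine transmission, the fast inhibitory signalling of the spinal cord, were examined in RNA-seq libraries of mouse spinal cord. The set of 28 given genes covers synthesis of GABA, transport, receptor subunits, the postsynaptic scaffold, chloride transporters and metabolism. A gene counted as a member when its level was at least 0.5 RPKM in at least 3 of the 9 libraries. RPKM are read counts scaled to transcript length and library size. Of the given genes 27 were matched by symbol in the authors' table of 14831 genes. All 27 passed the limit and were members, and 14430 genes of the table passed it. Gabrd, the remaining given gene, was not matched by symbol, so its level was not assessed here.

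All libraries came from wild-type female C57Bl/6 mice aged 10 weeks, and no other allele is named. A volume of 10 µl was injected in the right lateral ventricle, a fluid space of the brain, and the spinal cord was taken 2 weeks later. The injection held saline, 500 µg of a control antisense oligonucleotide (ASO, a short modified nucleic acid that pairs with a chosen RNA and lowers its level) or 500 µg of an ASO against mouse C9orf72, with 3 libraries per group. In people a repeat expansion in C9orf72 causes many inherited cases of frontotemporal dementia and of the motor neuron disease ALS. The study was set up to test what C9orf72 loss of function does in this tissue. The labels name no repeat expansion in these mice, so that the comparison is between normal and lowered levels of the mouse gene. No label states that replicate libraries were made from different mice, so that the p-values measure the spread between these samples, which may be technical.

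GABA is made from glutamate by the GAD enzymes, and both GABA and glycine are loaded into vesicles by a common transporter. Both transmitters open chloride channels, GABA-A and glycine receptors, which the scaffold protein gephyrin holds at the synapse, while GABA-B receptors act through G proteins. The direction of the chloride current depends on transporters that carry chloride out of or into the neuron, and in the spinal cord glycine and GABA together restrain motor neurons and sensory relay circuits.

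The libraries held an estimated 90.3 to 124.2 M reads, which puts 45.1 to 62.1 reads on a kilobase of transcript at 0.5 RPKM. C9orf72, the targeted gene, was at 10.5, 11.4 and 11.5 RPKM after saline and at 11.2, 11.7 and 10.6 RPKM after the control ASO. It was at 2.68, 3.40 and 3.12 RPKM after the C9orf72 ASO, a fall of 1.84 on the log2 scale against the control ASO (adjusted p = 1.8e-06, limma). Hoxc8, a gene of the body axis that marks spinal cord, was at 60.5 to 95.4 RPKM in the 9 libraries, and 5 of 6 markers of motor neurons passed the limit on low values. Of 6 markers of dorsal root ganglion 1 passed it, at no more than 0.635 RPKM.

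None of the 27 members passed the threshold in any of the 4 comparisons (limma, Benjamini-Hochberg adjusted p under 0.05 over 14430 genes). The share of all genes that passed was 0.0693% against the control ASO, 0.0693% against saline, 0.173% against both control groups and 0.00693% for the control ASO against saline. The comparisons share libraries, so they are not independent of each other. Against both control groups the 95% interval of the log2 fold change lay within ±0.5 for 25 of the members and within ±1 for all 27. Nlgn2 had the smallest p of the members in each of the 3 comparisons of the C9orf72 ASO. Against both control groups the transporter Slc6a9, the receptor gene Gabbr1 and the transporters Slc32a1 and Slc6a5 followed it in the order of p. Fewer cells of a type and less RNA per cell cannot be told apart in such bulk libraries.

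**Figure D1:**
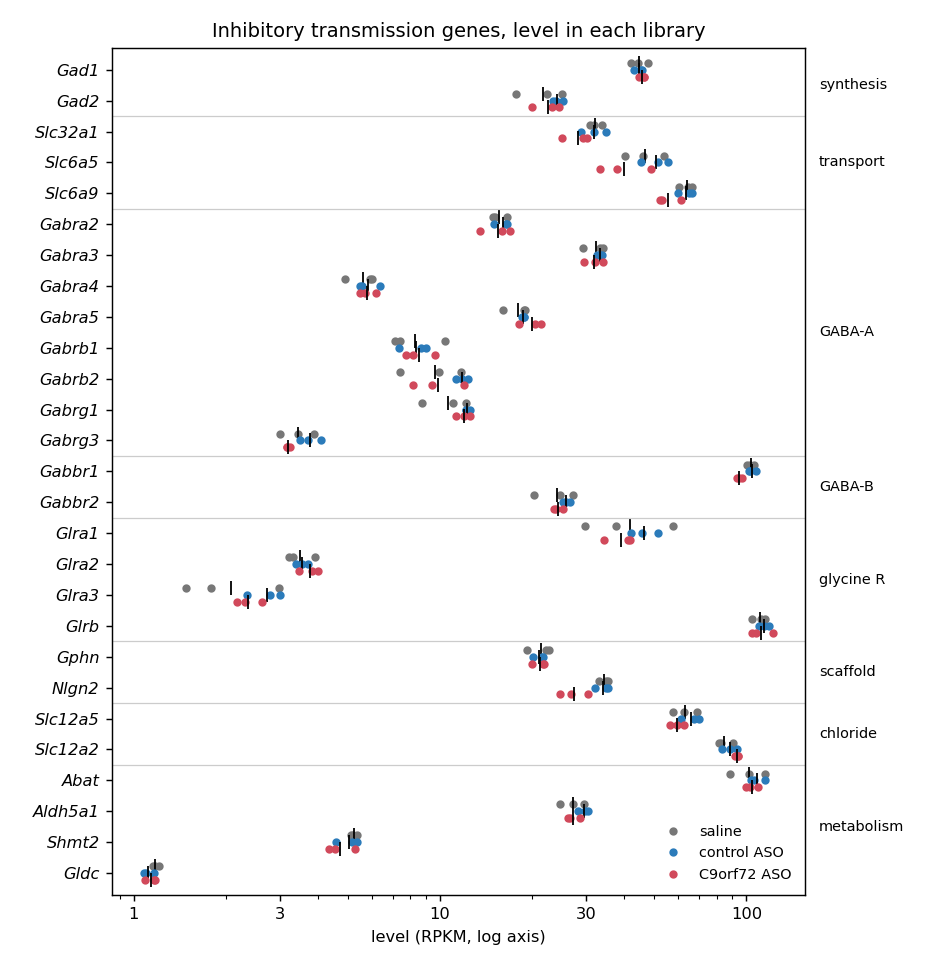
Level of the 27 members in each of the 9 libraries, in RPKM on a log axis, ordered by role. Points are libraries, coloured by group, and black ticks are group means. The 3 C9orf72 ASO values of Nlgn2 and of Gabbr1 lie below the other 6.

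The members spanned a wide range of levels. Glrb, the beta subunit of the glycine receptor that binds gephyrin, was highest at 112.1 ± 6.33 RPKM (SD, n = 9), followed by Abat, the enzyme that degrades GABA, at 104.6 ± 8.12 RPKM and by Gabbr1 at 100.8 ± 4.95 RPKM. Gldc, a subunit of the glycine cleavage system, was lowest at 1.14 ± 0.045 RPKM, 97.9-fold below Glrb. In all, 3 members lay at or above 100 RPKM, 17 between 10 and 100 RPKM and 7 under 10 RPKM, and none touched the floor of 0.1 RPKM in any library. In the order of levels the ranges over 9 libraries overlapped for 21 of 26 neighbouring pairs. The 5 steps without overlap lay between Slc12a2 and Slc12a5, Gabra2 and Gabrg1, Gabrb1 and Gabra4, Shmt2 and Glra2, and Glra3 and Gldc.

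Variation between libraries was small for most members. The ratio of the highest to the lowest library was under 1.5 for 23 of the 27, from 1.12 for Gldc to 2.03 for Glra3, an alpha subunit of the glycine receptor. Gad1 stayed within 42.1 to 47.7 RPKM. Glra1, the adult alpha subunit, ran from 29.6 to 57.6 RPKM, and both of these extremes were saline libraries.

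Synthesis of GABA showed no call. Gad1, the form of the enzyme spread through the cell, was at 42.1, 44.4 and 47.7 RPKM after saline, 43.0, 45.6 and 45.3 RPKM after the control ASO and 46.2, 46.2 and 44.7 RPKM after the C9orf72 ASO. Its log2 fold change against both control groups was 0.03 with a 95% interval of -0.08 to 0.15. The 3 groups of Gad1 overlapped. Gad2, the form enriched in terminals, was at 17.7, 25.1 and 22.3 RPKM after saline, 24.0, 23.3 and 25.2 RPKM after the control ASO and 23.1, 24.5 and 20.02 RPKM after the C9orf72 ASO. The lowest value of Gad2 was that of saline replicate 1, and its groups overlapped as well.

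The 3 transporter genes had negative fold changes in each comparison of the C9orf72 ASO, with a median of -0.20 against both control groups, and none passed the threshold. Slc6a9 (ENSMUSG00000028542), the glycine transporter GlyT1 that clears glycine chiefly into glia, was at 64.6, 66.4 and 60.4 RPKM after saline, 66.2, 59.6 and 64.9 RPKM after the control ASO and 52.2, 53.1 and 61.1 RPKM after the C9orf72 ASO. Replicates 1 and 2 of the C9orf72 ASO lay below the other libraries of Slc6a9, and replicate 3 lay among them. Its log2 fold change was -0.20 against the control ASO (limma, SE 0.07, adjusted p = 0.288), -0.20 against saline (SE 0.07, adjusted p = 0.269) and -0.20 against both (SE 0.06, adjusted p = 0.182).

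Slc6a5 (ENSMUSG00000039728), the neuronal glycine transporter GlyT2 that refills glycinergic terminals, was at 40.1, 54.0 and 46.1 RPKM after saline, 55.6, 45.3 and 51.5 RPKM after the control ASO and 38.0, 48.7 and 33.4 RPKM after the C9orf72 ASO. The lowest values of Slc6a5 were C9orf72 ASO replicates 3 and 1, but replicate 2 lay within both control groups. Its log2 fold change was -0.36 against the control ASO (limma, SE 0.14, adjusted p = 0.299) and -0.29 against both groups (SE 0.12, adjusted p = 0.257). Slc32a1 (ENSMUSG00000037771), the vesicular transporter that loads both transmitters, was at 30.8, 31.7 and 33.8 RPKM after saline, 34.8, 28.8 and 31.9 RPKM after the control ASO and 25.0, 30.3 and 29.2 RPKM after the C9orf72 ASO. All 3 C9orf72 ASO values of Slc32a1 lay below saline, while the control ASO overlapped them. The log2 fold change of Slc32a1 was -0.19 against saline (limma, SE 0.09, adjusted p = 0.352) and -0.18 against both (SE 0.07, adjusted p = 0.257).

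The 8 GABA-A receptor subunits among the members were divided in sign, 4 above and 4 below 0 against both control groups, with a median log2 fold change of -0.00. Gabra3, an alpha subunit, had the highest level of the 8 at 32.4 ± 1.87 RPKM (SD, n = 9), followed by Gabra5 at 18.9 ± 1.47 RPKM, a subunit known for receptors outside the synapse. Gabrg3, a gamma subunit, was at 2.999, 3.89 and 3.43 RPKM after saline, 3.49, 3.70 and 4.10 RPKM after the control ASO and 3.24, 3.17 and 3.18 RPKM after the C9orf72 ASO. Values of Gabrg3 in the C9orf72 ASO libraries lay below the control ASO without overlap, with saline spread across both. Its log2 fold change against the control ASO was -0.23 (limma, SE 0.09, adjusted p = 0.320). The other 7 subunits of this group had log2 fold changes from -0.12 for Gabrb2 to 0.12 for Gabra5 against both control groups.

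Gabra4 and Gabrb1, an alpha and a beta subunit gene, are neighbours whose annotated starts lie 387 bases apart on opposite strands and whose 5′ ends overlap, so that without strand in the counting their reads at this place could not be told apart. The libraries were strand-specific, and whether the authors' counting used strand is not given in the sources used here. Windows of 250 bases before to 50 after each start (RefSeq, GRCm38.p6) are printed to show this pair, at chr5:71658259-71658558 on the minus strand for Gabra4 and at chr5:71657671-71657970 on the plus strand for Gabrb1. Capitals mark GC boxes, the motif GGGCGG or its reverse complement CCGCCC.
Gabra4: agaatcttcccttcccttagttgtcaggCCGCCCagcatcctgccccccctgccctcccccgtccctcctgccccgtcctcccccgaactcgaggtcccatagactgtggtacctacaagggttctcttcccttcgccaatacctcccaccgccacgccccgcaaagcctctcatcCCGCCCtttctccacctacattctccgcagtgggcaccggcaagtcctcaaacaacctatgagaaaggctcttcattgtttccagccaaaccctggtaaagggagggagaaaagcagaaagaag
Gabrb1: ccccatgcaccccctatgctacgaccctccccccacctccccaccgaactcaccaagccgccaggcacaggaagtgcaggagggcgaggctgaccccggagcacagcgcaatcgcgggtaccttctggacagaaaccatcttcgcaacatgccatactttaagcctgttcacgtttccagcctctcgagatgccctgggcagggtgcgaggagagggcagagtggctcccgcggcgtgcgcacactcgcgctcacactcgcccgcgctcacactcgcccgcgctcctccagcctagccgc

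The Gabra4 window held 2 GC boxes and 12 CG dinucleotides, and the Gabrb1 window none and 25. Gabra4 was at 4.88, 5.90 and 5.98 RPKM after saline, 5.58, 6.36 and 5.47 RPKM after the control ASO and 6.20, 5.70 and 5.48 RPKM after the C9orf72 ASO. Gabrb1 was at 7.13, 10.4 and 7.39 RPKM after saline, 7.33, 9.01 and 8.69 RPKM after the control ASO and 9.62, 8.16 and 7.77 RPKM after the C9orf72 ASO. The groups of both genes overlapped in each comparison, and their log2 fold changes against both control groups were 0.03 and 0.04.

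Of the GABA-B receptor subunits, Gabbr1 (ENSMUSG00000024462), the subunit that binds GABA, was lower without overlap after the C9orf72 ASO. It was at 100.4, 106.0 and 103.1 RPKM after saline, 107.4, 102.3 and 102.9 RPKM after the control ASO and 94.3, 97.0 and 93.4 RPKM after the C9orf72 ASO. The difference was small, with a log2 fold change of -0.14 against the control ASO (limma, SE 0.05, adjusted p = 0.306), -0.12 against saline (SE 0.05, adjusted p = 0.352) and -0.13 against both (SE 0.05, adjusted p = 0.223). Gabbr2, the subunit that couples to G proteins, was at 20.3, 27.2 and 24.6 RPKM after saline, 26.5, 25.2 and 25.7 RPKM after the control ASO and 23.9, 25.2 and 23.5 RPKM after the C9orf72 ASO. Values of Gabbr2 in this last group lay below the control ASO and inside the spread of saline.

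Of the members, the glycine receptor genes Glra1 and Glra3 had the widest spread between libraries. Glra1 was at 29.6, 57.6 and 37.6 RPKM after saline, 51.5, 41.9 and 45.7 RPKM after the control ASO and 41.6, 41.2 and 34.2 RPKM after the C9orf72 ASO. Its C9orf72 ASO values lay below the control ASO without overlap, but the saline libraries alone spanned more than all the others. The log2 fold change of Glra1 against both control groups was -0.15 with a 95% interval of -0.51 to 0.22. Glra2 (0.09), Glra3 (0.02) and Glrb (-0.02) had log2 fold changes nearer 0 in the same comparison, and Glrb, near 104.0 to 122.5 RPKM throughout, overlapped between groups. Of the summed level of the 3 alpha subunit genes, in RPKM, Glra1 held 87.4%, Glra2, known as a fetal form, 7.62% and Glra3 4.94%, as means over 9 libraries.

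Nlgn2 (ENSMUSG00000051790), the neuroligin of inhibitory synapses that helps to recruit gephyrin, was the member with the smallest p in the comparisons of the C9orf72 ASO. Its promoter window, at chr11:69837735-69838034 on the minus strand (RefSeq, GRCm38.p6), is printed because Nlgn2 had the smallest p of the members.
Nlgn2: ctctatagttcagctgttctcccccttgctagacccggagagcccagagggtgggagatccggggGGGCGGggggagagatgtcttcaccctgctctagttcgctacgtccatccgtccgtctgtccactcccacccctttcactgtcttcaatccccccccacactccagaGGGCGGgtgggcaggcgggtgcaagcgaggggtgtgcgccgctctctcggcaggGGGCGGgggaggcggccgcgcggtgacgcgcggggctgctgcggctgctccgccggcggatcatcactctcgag

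The Nlgn2 window held 3 GC boxes, in capitals, and 26 CG dinucleotides. RefSeq windows were found for 24 of the 27 members, 32 windows in all, and 16 of these (50%) held GGGCGG on either strand, against 35.7% of 32851 promoter windows of 300 bases. TATAAA stood in 5 of the 32 windows, against 13.6% of all windows. These matches describe the letters of the windows, and the 3 printed genes were chosen after their values were seen.

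Nlgn2 was at 35.2, 34.8 and 33.1 RPKM after saline, 34.9, 32.0 and 35.4 RPKM after the control ASO and 24.6, 26.8 and 30.5 RPKM after the C9orf72 ASO. All 3 C9orf72 ASO values lay below the other 6, and the control ASO overlapped saline. The mean was 27.3 ± 2.97 RPKM (SD, n = 3) after the C9orf72 ASO and 34.2 ± 1.36 RPKM (SD, n = 6) in the control libraries. The log2 fold change of Nlgn2 was -0.32 against the control ASO (limma, SE 0.08, adjusted p = 0.200), -0.34 against saline (SE 0.08, adjusted p = 0.147) and -0.33 against both (SE 0.07, 95% interval -0.48 to -0.18, adjusted p = 0.0853). With the length and GC trends removed, the log2 fold change of Nlgn2 was -0.21 against the control ASO (adjusted p = 0.137, limma), -0.17 against saline (adjusted p = 0.214) and -0.19 against both (adjusted p = 0.0983). Without C9orf72 ASO replicate 3, the nearest to the controls, Nlgn2 passed the threshold at -0.42 against saline (adjusted p = 0.0376) and -0.41 against both (adjusted p = 0.0214). Over the 9 libraries left out in turn its adjusted p against both ranged from 0.0214 to 0.448. Gphn, which encodes gephyrin, was at 21.2 ± 1.15 RPKM (SD, n = 9) with a log2 fold change of -0.00 against both control groups and an interval of -0.14 to 0.13.

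The log2 fold changes of the chloride transporters against both control groups were -0.12 for Slc12a5 and 0.11 for Slc12a2, before any adjustment for GC content. Slc12a5 encodes KCC2, which carries chloride out of neurons, and was at 57.8, 69.0 and 62.7 RPKM after saline, 69.8, 61.0 and 67.3 RPKM after the control ASO and 56.1, 59.5 and 62.4 RPKM after the C9orf72 ASO. Slc12a2 encodes NKCC1, which carries chloride into cells and is also made by glia, and was at 82.6, 90.1 and 81.4 RPKM after saline, 83.4, 93.0 and 88.4 RPKM after the control ASO and 93.7, 94.2 and 91.9 RPKM after the C9orf72 ASO. Slc12a2 lay above saline without overlap after the C9orf72 ASO, with a log2 fold change of 0.14 (limma, SE 0.06, adjusted p = 0.352), and Slc12a5 overlapped in each comparison. The transcript of Slc12a5 is richer in GC (58.3%) than that of Slc12a2 (44.2%). With the trends of each library against transcript length and GC content removed, an adjustment chosen after seeing the data, Slc12a5 was at 0.00 and Slc12a2 at 0.12 against both control groups, and the values against saline were 0.06 and 0.12. The opposite signs did not remain in these 2 comparisons. Against the control ASO they did remain, with -0.05 for Slc12a5 and 0.12 for Slc12a2 after the same adjustment.

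Ratios within a library do not depend on its total, but they carry its trend with GC content, which was not removed from the ratios given here. The ratio of Slc12a5 to Slc12a2 was 0.699, 0.766 and 0.769 after saline, 0.836, 0.657 and 0.761 after the control ASO and 0.599, 0.632 and 0.679 after the C9orf72 ASO. Its mean was 0.637 ± 0.040 (SD, n = 3) after the C9orf72 ASO and 0.748 ± 0.062 (SD, n = 6) in the control libraries. The log2 difference was -0.23 (exact permutation p = 0.0595, two-sided, adjusted p = 0.179 over 3 ratios), where 84 splits allow no p under 0.0119. The ranges overlapped at control ASO replicate 2, and with each library left out in turn the exact permutation p ranged from 0.0179, without that library, to 0.179, without C9orf72 ASO replicate 1.

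The ratio of Gad1 to Gad2 differed by 0.05 on the log2 scale (exact permutation p = 0.643, two-sided), with 2.04 ± 0.178 (SD, n = 3) after the C9orf72 ASO and 1.97 ± 0.241 (SD, n = 6) in the controls. The ratio of Glra1 to Glrb, the alpha to the beta subunit of the glycine receptor, differed by -0.13 (exact permutation p = 0.5, adjusted p = 0.643), with 0.351 ± 0.032 against 0.391 ± 0.088. The saline libraries alone covered 0.284 to 0.514 for this ratio. Neither of these ratios differed beyond the spread of the control libraries.

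**Figure D2:**
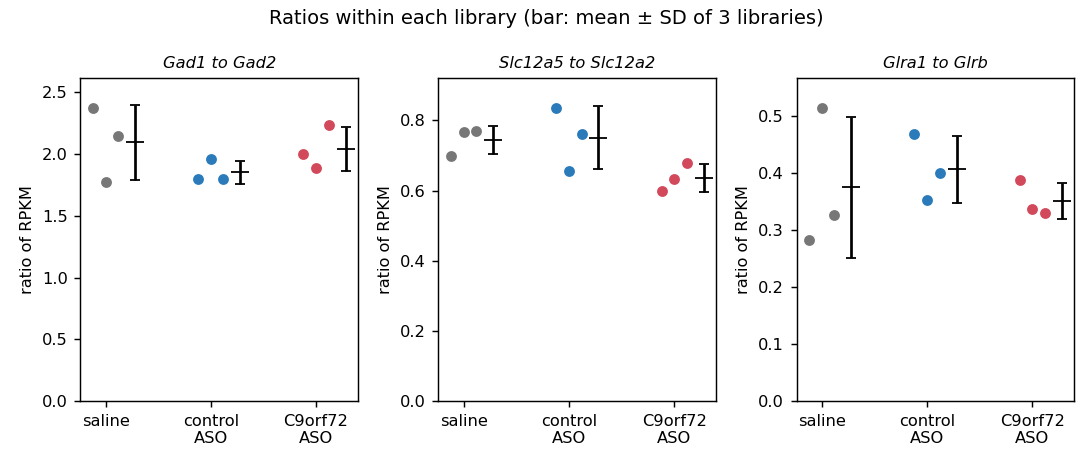
Ratio of RPKM within each library for Gad1 to Gad2, Slc12a5 to Slc12a2 and Glra1 to Glrb, with points for libraries and bars for the mean ± SD of 3 libraries. The C9orf72 ASO libraries sit at 0.599 to 0.679 for Slc12a5 to Slc12a2, and control ASO replicate 2, at 0.657, lies among them.

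The enzymes of GABA and glycine metabolism gave no call. Abat was at 88.5, 115.0 and 101.9 RPKM after saline, 114.7, 103.8 and 105.9 RPKM after the control ASO and 102.8, 109.2 and 99.8 RPKM after the C9orf72 ASO. Aldh5a1, which oxidises succinic semialdehyde, the product of Abat, was at 27.9 ± 1.87 RPKM (SD, n = 9). Shmt2, the mitochondrial enzyme that interconverts serine and glycine, was at 5.36, 5.21 and 5.13 RPKM after saline, 5.38, 4.59 and 5.16 RPKM after the control ASO and 4.55, 4.36 and 5.28 RPKM after the C9orf72 ASO. The log2 fold changes against both control groups were -0.01 for Abat, -0.06 for Aldh5a1, -0.12 for Shmt2 and -0.00 for Gldc, and the groups of all 4 overlapped.

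Counts at an unadjusted p under 0.05 place the members against all genes. Against the control ASO 5 of 27 were lower (Nlgn2, Slc6a9, Slc6a5, Gabbr1 and Gabrg3), where 7.71% of all genes were, and 0 were higher, where 6.39% were. Against saline 4 were lower (Nlgn2, Slc6a9, Gabbr1 and Slc32a1), with 10.2% of all genes, and Slc12a2 was higher, with 3.79%. Against both control groups 5 were lower (Nlgn2, Slc6a9, Gabbr1, Slc32a1 and Slc6a5), with 10.9% of all genes, and 0 higher, with 5.87%. The counts moved with the scaling. With median log ratio scaling 5 were lower and 0 higher against the control ASO, 2 and 2 against saline and 3 and 1 against both. With the length and GC trends removed they were 4 and 1, 1 and 1, and 4 and 1. Over all genes the 1466 lower and 547 higher against saline became 952 and 967 with median log ratio scaling and 732 and 720 with these trends removed. Against the control ASO the 1112 and 922 became 913 and 1103, and 992 and 985. Against both control groups the 1568 and 847 became 1118 and 1216, and 960 and 962. With each library left out in turn the counts of lower members ranged from 1 to 7, 1 to 5 and 1 to 7. Against the control ASO the highest count came without saline replicate 2, with 1377 of all genes lower. Against saline and against both it came without saline replicate 1, with 1085 and 1588 of all genes. The count was 1 in each comparison without C9orf72 ASO replicate 1, where the lower genes of all fell to 587, 917 and 882. It was also 1 against the control ASO without control ASO replicate 3 and against saline without saline replicate 2, with 634 and 1378 of all genes. The count was 2 against the control ASO without C9orf72 ASO replicate 3 or control ASO replicate 1, where 1454 and 855 of all genes were lower. Against saline it was 2 without saline replicate 3 or control ASO replicate 3, with 1316 and 1324 of all genes. Against both it was 3 without control ASO replicate 1 or 3, with 1267 and 1227 of all genes.

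Members whose libraries did not overlap against the control ASO were 5 lower (Nlgn2, Gabbr1, Gabrg3, Glra1 and Gabbr2) and 0 higher, with 11.8% and 10.1% of all genes. Against saline they were 3 lower (Nlgn2, Gabbr1 and Slc32a1) and Slc12a2 higher, with 12.4% and 5.61% of all genes. Against both control groups Nlgn2 and Gabbr1 lay lower and 0 higher, with 5.05% and 2.82% of all genes.

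The median log2 fold change of the members was -0.09 against the control ASO, -0.00 against saline and -0.04 against both, beside medians of -0.01, -0.03 and -0.02 over all genes tested. The fold change was below 0 for 20, 14 and 19 of the 27 members, against 54.1%, 58.7% and 57.2% of all genes. These counts depended on the scaling. With median log ratio scaling they were 19, 10 and 14, and with the trend of each library against transcript length removed they were 18, 9 and 12. Without C9orf72 ASO replicate 3 they were 16, 9 and 12. The shares of all genes given above are of the main fit only. With median log ratio scaling the medians over all genes were -0.004, 0.006 and 0.001, and with the length trend removed -0.002, 0.002 and -2.1e-05. Without C9orf72 ASO replicate 3 the medians over all genes were -0.02, -0.03 and -0.02.

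**Figure D3:**
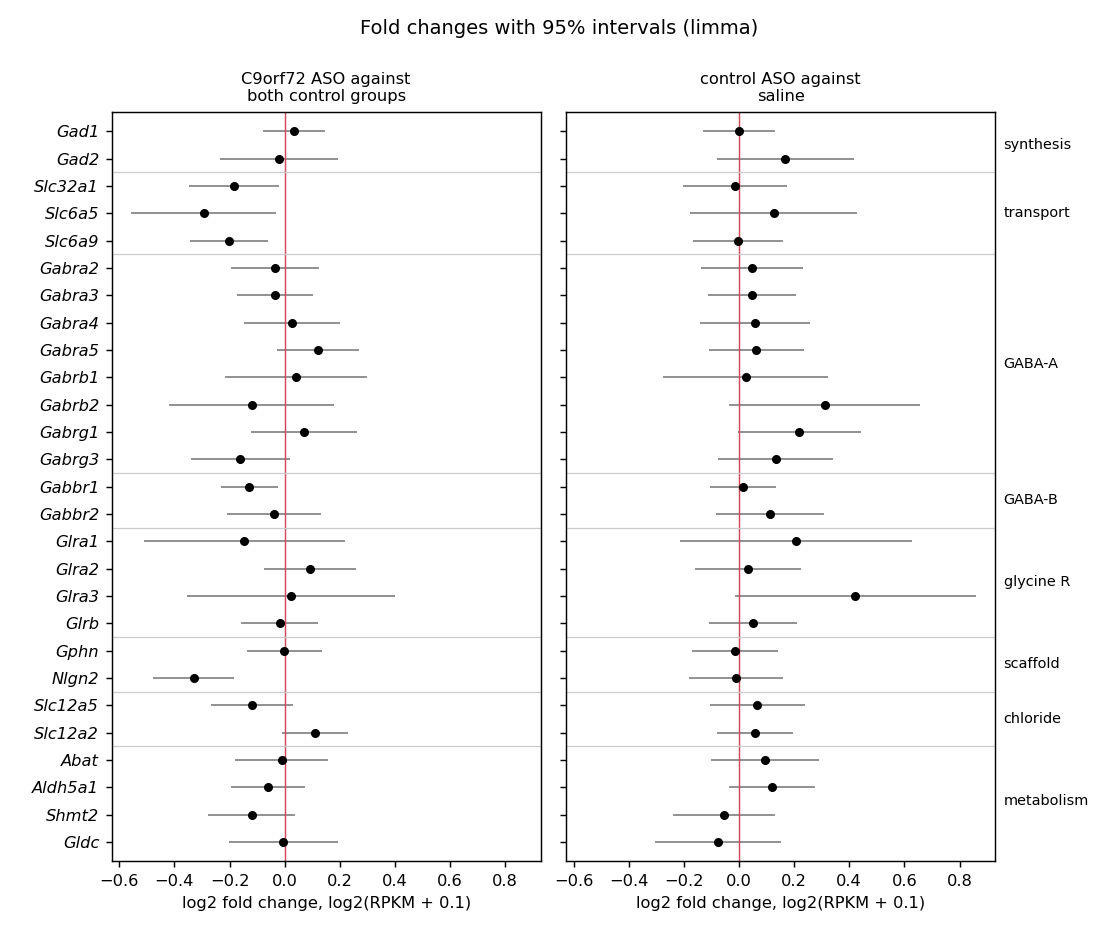
Log2 fold change of each member on the log2(RPKM + 0.1) scale with its 95% interval from limma, for the C9orf72 ASO against both control groups and for the control ASO against saline. Against both control groups Nlgn2 lies at -0.33, and in the control ASO comparison Glra3 lies at 0.42 with an interval that includes 0.

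The control ASO against saline asks what an ASO that does not target C9orf72 does. Of the 27 members 0 were lower and 0 higher at an unadjusted p under 0.05, where 3.98% and 1.37% of all genes were (5.35% in either direction). With median log ratio scaling 2 members were higher and 0 lower, beside 354 and 371 of all genes. The fold change was below 0 for 6 of the 27, against 57.4% of all genes. It was below 0 for 14 without saline replicate 1 and for 2 with median log ratio scaling. The median over all genes was -0.02 in the main fit, and -0.01 and 0.004 under these settings. No member was free of overlap in either direction, against 7.15% lower and 3.16% higher of all genes. The smallest p belonged to Gabrg1, a gamma subunit known from glia and some neurons, with a log2 fold change of 0.22 (SE 0.10), Glra3 with 0.42 (SE 0.20), Gabrb2, a beta subunit, with 0.31 (SE 0.16) and Aldh5a1 with 0.12 (SE 0.07), each at an adjusted p of 0.794 (limma).

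Gabrg1 was at 8.70, 12.2 and 11.0 RPKM after saline, 12.1, 12.2 and 12.5 RPKM after the control ASO and 12.01, 12.6 and 11.3 RPKM after the C9orf72 ASO. Glra3 was at 1.48, 2.98 and 1.78 RPKM after saline, 2.80, 2.35 and 3.003 RPKM after the control ASO and 2.63, 2.18 and 2.30 RPKM after the C9orf72 ASO. Gabrb2 was at 7.38, 11.7 and 9.90 RPKM after saline, 11.3, 11.8 and 12.3 RPKM after the control ASO and 9.42, 11.98 and 8.17 RPKM after the C9orf72 ASO. In all 3 genes the lowest of the 9 values was that of saline replicate 1, while saline replicate 2 lay within the range of the control ASO.

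Saline replicate 1 stood apart over the members as a whole. It was the lowest of the 9 libraries for 16 of 27 members, a count not made over all genes. Its median deviation from the mean of each gene was -0.15 over the members and 0.04 over all genes tested. Saline replicate 2 and control ASO replicate 1 were each the highest for 6 members, with median deviations of 0.10 and 0.08 over the members. Over all genes tested their median deviations were 0.008 and 0.002. The members' median of 0.06 for the control ASO against saline was -0.00 without saline replicate 1. Without saline replicate 2 there were 9 members higher and 0 lower at an unadjusted p under 0.05. Over all genes the counts moved as well, from 197 higher and 575 lower of 14430 to 1009 and 1340 of 14393 in that fit. The fold change against saline was below 0 for 22 of the 27 members in the C9orf72 ASO without saline replicate 1 and for 9 without saline replicate 2. The medians over all genes in these fits were -0.025 and -0.034. Saline replicate 1 also deviated by 0.15 in the fifth of all genes richest in GC and by 0.11 in the fifth with the shortest transcripts, and the part of this in the members' values was not tested.

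**Figure D4:**
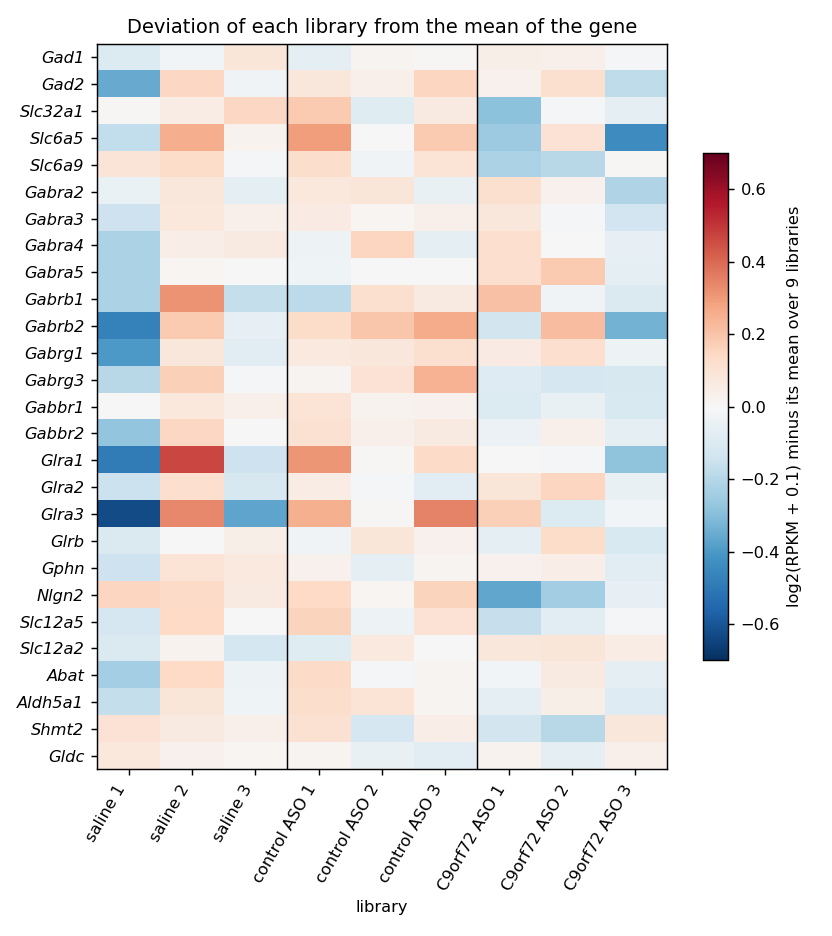
Deviation of each library from the mean of each gene over 9 libraries, as log2(RPKM + 0.1), with blue for lower and red for higher values. Saline replicate 1 is the lowest library for 16 of the 27 members, a count not made over all genes. Nlgn2, Slc6a9 and Shmt2 are lowest in C9orf72 ASO replicates 1 and 2.

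Fold changes of the members went with the GC content of their transcripts, which ran from 35.2% for Glra3 to 61.9% for Slc32a1. Over the 27 members Pearson's r between the log2 fold change and GC was -0.34 against the control ASO, -0.74 against saline, -0.61 against both control groups and -0.51 for the control ASO against saline. Over 13970 genes with a known transcript it was -0.10, -0.29, -0.22 and -0.22. These are descriptions across genes that share the same 9 libraries, and genes are not independent replicates. In the fifth of genes richest in GC the median log2 fold change against both control groups was -0.09 for all genes and -0.15 for the 6 members there (Slc32a1, Nlgn2, Slc12a5, Shmt2, Slc6a9 and Gabbr2). In the fifth poorest in GC it was 0.03 for all genes and 0.02 for 9 members.

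**Figure D5:**
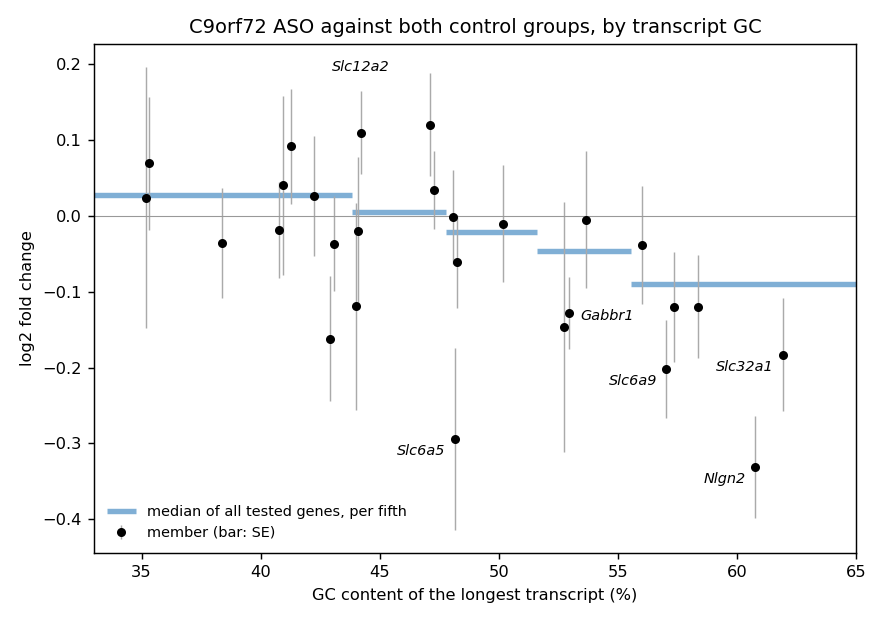
Log2 fold change of each member for the C9orf72 ASO against both control groups, with its SE, by the GC content of its longest transcript in percent. Blue lines give the median of all tested genes in each of 5 bins of GC, from 0.03 to -0.09, and Nlgn2, at 60.7% GC, lies at -0.33.

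The libraries themselves differed in this respect. In the richest of the 5 GC bins of all genes, C9orf72 ASO replicates 1 and 2 deviated by -0.12 and -0.13 and replicate 3 by 0.07. Of the members in that bin, Nlgn2, Slc6a9 and Shmt2 were also lowest in replicates 1 and 2, and Slc32a1, Slc12a5 and Gabbr2 were not. Slc32a1 was at 30.3 RPKM in replicate 2, above control ASO replicate 2 at 28.8 RPKM. Slc12a5 was at 59.5 RPKM in replicate 2, above saline replicate 1 at 57.8 RPKM. Gabbr2 was lowest in saline replicate 1. Whether the deviation of these libraries caused the low values was not tested. With the length and GC trends removed, the log2 fold change against both control groups was -0.10 for Slc6a9 (adjusted p = 0.326, limma) and -0.27 for Slc6a5 (adjusted p = 0.334). Gabbr1 and Slc32a1 were both at -0.06 after this adjustment (adjusted p = 0.537 and 0.749). Against saline the adjusted values were -0.07 for Slc6a9, -0.21 for Slc6a5, -0.04 for Gabbr1 and -0.03 for Slc32a1, with adjusted p from 0.660 to 0.964 (limma). Against the control ASO they were -0.13, -0.32, -0.08 and -0.10 in the same order, with adjusted p from 0.296 to 0.611 (limma). Over the 10 alternatives that kept all libraries the adjusted p of Nlgn2 against both control groups ranged from 0.0657 to 0.181 (limma).

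A list of other genes of inhibitory transmission held 56 further receptor, transporter, scaffold and metabolic genes, of which 48 were tested, and none passed the threshold in any comparison. At an unadjusted p under 0.05 there were 9 lower and 1 higher against the control ASO, 9 and 1 against saline, 10 and 1 against both control groups, and 1 and 0 for the control ASO against saline. The shares of all genes were 7.71% lower and 6.39% higher, 10.2% and 3.79%, 10.9% and 5.87%, and 3.98% and 1.37%. The list's median log2 fold change against both control groups was -0.08, with 37 of the 48 below 0, beside a median of -0.02 and 57.2% below 0 over all genes. Counts and fold changes of this list, also those of Slc38a3 and Slc6a11 below, are of the main fit only. Slc38a3, a glutamine transporter of astrocytes, was at 19.0, 20.3 and 19.1 RPKM after saline, 18.9, 17.3 and 19.7 RPKM after the control ASO and 16.0, 16.2 and 16.7 RPKM after the C9orf72 ASO. Values of Slc38a3 in this last group lay below the other 6, with a log2 fold change of -0.22 (limma, SE 0.05, adjusted p = 0.125).

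Slc6a11, the GABA transporter GAT3 of astrocytes, was at 65.7, 86.1 and 77.0 RPKM after saline, 85.1, 82.3 and 89.2 RPKM after the control ASO and 57.2, 65.9 and 70.8 RPKM after the C9orf72 ASO. It lay below the control ASO without overlap and overlapped saline, with a log2 fold change of -0.32 against both (limma, SE 0.09, adjusted p = 0.159).

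Markers of the cells that carry these genes were read beside the members, and their fold changes are of the main fit only. Of 14 general neuronal genes none passed the threshold, the median log2 fold change against both control groups was -0.04, and their summed level was 3724 to 3960 RPKM after saline, 3963 to 4112 RPKM after the control ASO and 3561 to 3933 RPKM after the C9orf72 ASO. The sum of the 27 members was at 861 to 1012, 953 to 995 and 883 to 951 RPKM. The C9orf72 ASO range of the members lay inside that of saline and just below that of the control ASO, without overlap. The sums of the general neuronal genes after the C9orf72 ASO also lay below the control ASO and overlapped saline. Of 15 tested genes that mark types of inhibitory neurons none passed, with a median of 0.02. Gata2, a transcription factor of an inhibitory interneuron class, was at 1.58, 1.46 and 1.36 RPKM after saline, 1.24, 1.45 and 0.962 RPKM after the control ASO and 0.749, 0.845 and 0.956 RPKM after the C9orf72 ASO. Its values after the C9orf72 ASO were the lowest 3 of 9, with a log2 fold change of -0.59 (limma, SE 0.13, adjusted p = 0.110). This was the lowest fold change of the 15 in that comparison, where 8 lay above 0, up to 0.10, and 7 below.

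Markers of other cell types differed between the same libraries. All 12 microglia markers had fold changes above 0 against both control groups, and Tyrobp (0.62, adjusted p = 0.0173, limma) and C1qb (0.46, adjusted p = 0.0402) passed the threshold. Against the control ASO alone all 12 lay above 0 and none passed (smallest adjusted p = 0.0905, limma). Against saline 10 lay above 0 and 2 below (smallest adjusted p = 0.0310, limma). The summed level of the list was 199.4 to 224.6, 200.1 to 218.0 and 253.0 to 268.5 RPKM in saline, control ASO and C9orf72 ASO. None of 9 endothelial markers passed against both control groups, with a median of -0.39 and sums of 105.3 to 125.3, 83.9 to 107.3 and 89.5 to 96.8 RPKM. The part of these shifts in the members' values was not tested. Lists for excitatory neurons, motor neurons, astrocytes, oligodendrocytes, their precursors, ependyma and skeletal muscle had no gene past the threshold in any comparison. Their medians against both control groups ran from -0.17 for the precursors to 0.17 for ependyma.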

How the data were processed

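Spinal cord RNA of 9 mouse samples in 3 groups of 3 was sequenced. Per the labels' protocols, RNA was extracted with Trizol and the libraries kept strand. Per the submitters' processing notes, the authors used cutadapt 1.2.1, GSNAP and the build mm9. Which read counter and annotation they used is not given in the sources used here. Values deposited by the authors were read as RPKM from their size and steps, since the header names no unit. Values under 0.5 RPKM stood at 0.1 (5160 values, 3.87%).

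Depth was estimated from the step of genes up to 350 bases long, where 56.1% to 68.5% of values lay within 0.1 of a whole read, so that it is approximate and no count test was run. Differences were tested with limma 3.58.1 (R 4.3.3, mean trend, robust) on log2(RPKM + 0.1), which understates the change of low genes, in 1 fit of 9 libraries. Of 14831 genes, 14430 reached 0.5 RPKM in 3 libraries and were tested, and 401 were left out. Genes were called at an adjusted p under 0.05 (Benjamini-Hochberg). Symbols were matched for 14321 genes. Transcript length and GC came from a GRCm38 annotation, so no gene positions on mm9 are given. Ratios were compared by exact permutation, C9orf72 ASO against the other 6 libraries.

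The members and lists were chosen with earlier results of these data known. Full statistics went to the 4 members with the smallest p in each comparison, and other lists gave the genes past the threshold or those with the smallest p. Alternatives covered the test settings, filter, pseudocount, scaling, length trend, samples in the fit and each library left out. Removing length and GC trends together was added after seeing the data.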

Additional observations from a re-analysis of the deposited data

How the results depend on the processing

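No member passed the threshold under any of the 11 alternatives other than leaving out a library (10 against both control groups, where fitting only the groups compared gave no value). The count of all genes past the threshold against the control ASO, 10, was 19 without trend and robust estimation and 16 without a filter. Against saline, 10 became 4 with only the groups compared, 25 with the length trend removed and 28 with length and GC trends removed. Against both control groups, 25 became 39 when only genes averaging at least 1 RPKM were kept. For the control ASO against saline, 1 became 9 without trend and robust estimation, 5 without a filter, 0 with genes averaging at least 1 RPKM, 2 with the length trend removed and 3 with length and GC trends removed.

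With each library left out in turn, the counts ranged from 7 to 27 against the control ASO, 4 to 54 against saline, 7 to 139 against both and 0 to 2 for the control ASO against saline. The highest counts in the 3 comparisons of the C9orf72 ASO came without its replicate 3. Members past the threshold ranged from 0 to 1 against saline and against both, which was Nlgn2 without C9orf72 ASO replicate 3. The members' median ranged from -0.11 to -0.03, -0.07 to 0.05, -0.08 to 0.02 and -0.00 to 0.10. The log2 difference of Gad1 to Gad2 ranged from -0.014, without C9orf72 ASO replicate 3, to 0.11, that of Slc12a5 to Slc12a2 from -0.28 to -0.19 and that of Glra1 to Glrb from -0.21 to -0.04. Slc12a5 to Slc12a2 was -0.27 without control ASO replicate 2. The cause of these moves was not tested. No paired analysis was possible because the labels give no replicate numbers. Depth limits low genes less than the floor at 0.5 RPKM does, and no member reached it.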
